A study of Homo sapiens with 27 samples.

Results

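The comparison asked how the effect of the FAK inhibitor VS-4718 (FAKi) on gene expression changed between day 14 and day 21 of continuous treatment. For each gene the FAKi minus DMSO difference at day 14 was subtracted from the FAKi minus DMSO difference at day 21, and this interaction was tested over the 12 libraries of those 2 days, out of 27 libraries in the series. A positive interaction means that the inhibitor effect moved upward between the days, and a negative one that it moved downward. Of 25869 genes with at least 20 counts over the 12 libraries, 1922 had a called interaction (edgeR quasi-likelihood test, adjusted p at most 0.05 and an absolute log2 value over 1), which is 7.43% of the genes tested. These genes were sorted by the effects on the single days, each taken as present where its own adjusted p was at most 0.05. A gene was called reversed where both effects were present with opposite signs, faded where only the day 14 effect was present, late where only the day 21 effect was present, and weakened or strengthened where both had the same sign. Late genes numbered 1183 (4.57% of all genes tested), faded genes 261 (1.01%), reversed genes 215 (0.831%), weakened genes 15 (0.058%) and strengthened genes 6 (0.0232%), and for 242 genes (0.935%) neither single effect was present. By the same rule on a single day, 409 genes (1.58%) were called at day 14 and 1531 (5.92%) at day 21.

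The cells were 92.1, an established uveal melanoma line that carries an activating GNAQ mutation. The 4 groups were DMSO at day 14, FAKi at day 14, DMSO at day 21 and FAKi at day 21, with 3 libraries each. FAKi was VS-4718 at 100 nM, DMSO is the solvent, and medium and treatment were renewed every 72 h in both. All groups share 1 cell line, so the values describe this line, and the spread between these libraries is what the p-values measure. The methods state triplicate plating as well as 3 biological replicates of the experiment, and the labels do not say which of these a replicate number marks.

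FAK, encoded by PTK2, is a tyrosine kinase of integrin adhesions, and in cells with mutant GNAQ it is activated through TRIO and feeds the YAP pathway. Several gene programs that appear in the results have known drivers. The integrated stress response runs through ATF4, a transcription factor that with CEBPG binds a composite element and raises genes of amino acid uptake, serine and asparagine synthesis and tRNA charging. Genes of DNA replication are driven by E2F factors at the start of S phase, those of the mitotic spindle rise later in the cycle, and chaperones of the endoplasmic reticulum (ER) rise when unfolded protein accumulates there.

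Levels are given in CPM, counts per 1000000 counts of a library after TMM scaling. Library totals ran from about 17137600 to 40190000 counts. The share of counts on the mitochondrial chromosome was 21.95 to 26.97% in DMSO and 20.7 to 22.1% in FAKi at day 14, and 5.49 to 9.75% in DMSO and 10.7 to 11.2% in FAKi at day 21. DMSO day 21 replicate 3 stood apart from its group. Its root mean square distance over genes was 0.699 and 0.741 on the log2 scale from the other DMSO day 21 libraries, which lay 0.305 from each other, and 0.549 to 0.571 from the FAKi day 21 libraries. The day code in its description also differs from its title, and it was kept under its title, and counts of calls and classes are also given without it. Leaving it out changed the class of 22 of 100 genes chosen for description, most often from late to reversed (11 genes), and those named in the text are identified beside their values. FAKi day 14 replicate 1 lay 0.210 from the library labelled FAKi day 7 replicate 1, closer than to the other libraries of its own group, at 0.330 and 0.409. The melanocyte lineage markers PMEL, TYRP1, MLANA, TYR, DCT, SOX10 and MITF summed to 9194 to 15001 CPM in each library, and the summed level of 5 fibroblast, 3 endothelial and 4 immune markers stayed at or under 13.6 CPM in each library for each of these lists. The summed level of 5 epithelial markers ran from 35.5 to 51.8 CPM in DMSO at day 21 and from 5.86 to 14.3 CPM in the other 3 groups. Most of it was KRT18, with a mean of 41.1 CPM in DMSO at day 21, where KRT8 averaged 3.17 CPM. CDH1 averaged 0.51 to 0.79 CPM in the 4 groups, and EPCAM and KRT19 at most 0.024 and 0.026 CPM. The part of these markers in the late results was not tested. PTK2, which encodes the inhibitor's target, read 128 ± 3.34 CPM in DMSO and 124 ± 4.28 CPM in FAKi at day 14 and 112 ± 20.01 and 122 ± 9.22 CPM at day 21 (SD, n = 3), and neither PTK2 nor GNAQ had a called interaction. In bulk RNA, a smaller share of cells of one kind and less RNA per cell cannot be told apart.

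Promoter sequences of members of 3 programs whose inhibitor effect changed between the days are shown first, because known binding elements of their drivers could be found in them by letter. The windows are upstream of the RefSeq gene start on GRCh38.p14, read 5′ to 3′ on the gene's strand, and capitals mark the matches on either strand. The ATF4 composite element was searched as TGATGNAA, which was found in the 250 bases upstream of 3.14% of 35116 promoters, or of 3.89% of genes with a promoter entry, and of 3 of 19 integrated stress response genes with a promoter entry. It is shown for asparagine synthetase (ASNS), the glutathione-degrading enzyme CHAC1 and the ATF4 partner CEBPG.
ASNS, chr7:97872419-97872526, minus strand: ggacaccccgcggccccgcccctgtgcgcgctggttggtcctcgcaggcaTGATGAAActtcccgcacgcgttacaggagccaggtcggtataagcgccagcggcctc
CHAC1, chr15:40953221-40953319, plus strand: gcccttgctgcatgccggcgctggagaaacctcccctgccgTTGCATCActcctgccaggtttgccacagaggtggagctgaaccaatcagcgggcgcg
CEBPG, chr19:33374021-33374112, plus strand: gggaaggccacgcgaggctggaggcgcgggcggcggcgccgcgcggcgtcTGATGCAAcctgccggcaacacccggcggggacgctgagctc
The E2F site was searched as TTTCGCGC or TTTGGCGC, found in 0.968% of promoters, 1.2% of genes and 4 of 18 replication genes. It is shown for E2F1 and the helicase subunit MCM6, where matches on both strands overlap.
E2F1, chr20:33686386-33686455, minus strand: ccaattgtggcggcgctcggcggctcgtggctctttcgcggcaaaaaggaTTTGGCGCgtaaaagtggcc
MCM6, chr2:135876472-135876645, minus strand: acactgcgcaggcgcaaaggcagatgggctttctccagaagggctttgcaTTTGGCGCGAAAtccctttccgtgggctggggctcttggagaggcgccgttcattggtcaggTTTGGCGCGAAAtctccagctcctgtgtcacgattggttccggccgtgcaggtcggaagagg
The ER stress element was searched as CCAAT and CCACG with 9 bases of any kind between them, found in 0.074% of promoters, 0.0916% of genes and 7 of 17 ER chaperone genes. It is shown for the disulfide isomerase PDIA6 and the calcium-binding chaperone CALR.
PDIA6, chr2:10812803-10812921, minus strand: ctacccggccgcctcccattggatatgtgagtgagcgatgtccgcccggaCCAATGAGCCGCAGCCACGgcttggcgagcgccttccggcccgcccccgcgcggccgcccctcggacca
CALR, chr19:12938359-12938452, plus strand: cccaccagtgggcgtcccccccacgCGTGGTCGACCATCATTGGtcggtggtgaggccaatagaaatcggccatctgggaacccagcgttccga
A match describes these letters and not a bound site.

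**Figure D1:**
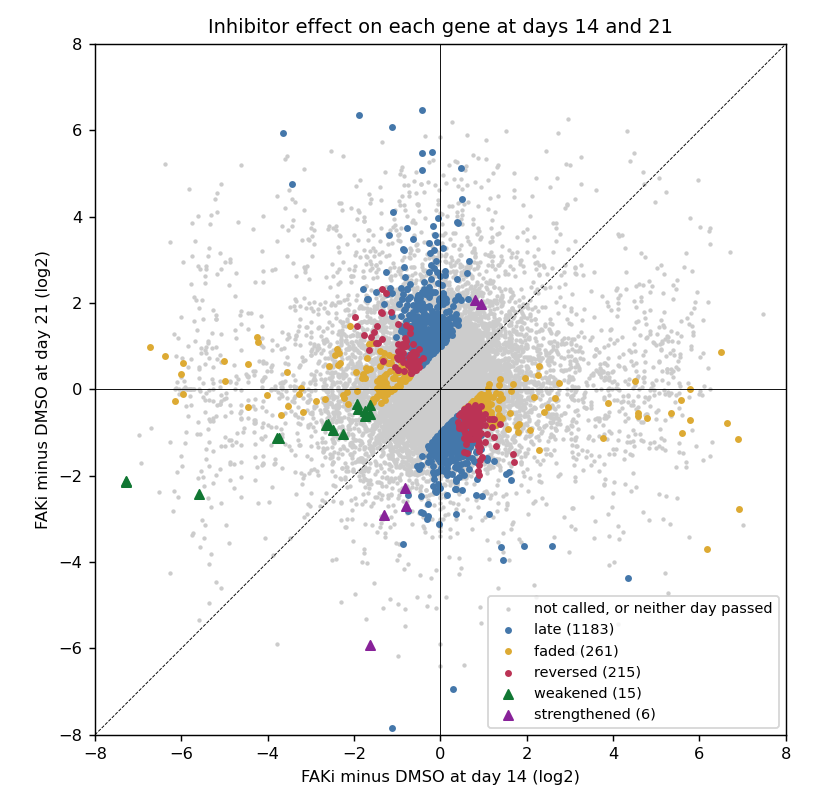
Each point is 1 gene, with the FAKi minus DMSO difference at day 14 on the x axis and at day 21 on the y axis, both on the log2 scale, coloured by class with the number of genes. Reversed genes lie in the upper left and lower right quadrants, faded genes near the horizontal line and late genes near the vertical line, and the dashed line marks an equal effect on both days.

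Among the reversed genes, 82 (0.317% of all genes tested) had an upward and 133 (0.514%) a downward interaction, against 915 and 1007 of all called genes, and the upward share of 38.1% was 49.5% with upper quartile scaling. In 203 of the 215 the FAKi and DMSO libraries did not overlap on either day and their order turned, which was so for 5.65% of all genes tested. The class rule itself favours such genes. The same turn without overlap was found in 379 of 1183 late and 77 of 261 faded genes. For late and faded genes, an effect not present on a day means only that its adjusted p did not pass. There were 728 reversed genes without DMSO day 21 replicate 3, and without FAKi day 14 replicate 1 there were 95. Pairing libraries by replicate number within each day gave 464.

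TXNIP (ENSG00000265972.6, chr1:145992435-145996579 on hg38), an arrestin family protein that binds thioredoxin and restrains glucose uptake, had the smallest interaction p among the reversed genes named. TXNIP read 43.5, 48.9 and 46.4 CPM in DMSO and 10.7, 13.7 and 12.3 CPM in FAKi at day 14, then 20.1, 13.6 and 12.7 CPM in DMSO and 43.1, 41.8 and 42.9 CPM in FAKi at day 21. The FAKi libraries were all below the DMSO libraries at day 14 and all above them at day 21. The log2 effect went from -1.92 to 1.46, an interaction of 3.38 ± 0.23 (SE, edgeR adjusted p = 1.06e-06). The angiogenic growth factor VEGFA (chr6:43770211-43786487) turned in the same direction. VEGFA read 106, 110.2 and 107 CPM in DMSO and 36.6, 31.1 and 35.7 CPM in FAKi at day 14, then 74.2, 63.6 and 104 CPM in DMSO and 138, 151 and 164 CPM in FAKi at day 21. The VEGFA effect was -1.64 at day 14 and 0.90 at day 21, an interaction of 2.55 ± 0.22 (SE, edgeR adjusted p = 1.16e-05), and the libraries of the 2 arms did not overlap on either day. VEGFA was the 1 called gene of 20 hypoxia-responsive genes tested, a share below the 7.43% of all genes called, and 2 were called without DMSO day 21 replicate 3. NDUFA4L2, described below as hypoxia-induced, was called but is not on that list, so the share holds only for the list as drawn. LINC01531 (chr19:35405607-35416840), a long noncoding RNA, had a mean of 265 ± 11.6 CPM in DMSO and 163 ± 5.82 CPM in FAKi at day 14, and of 107 ± 14.6 and 285 ± 29.2 CPM at day 21 (SD, n = 3), with an interaction of 2.12 ± 0.18 (SE, edgeR adjusted p = 9.44e-06).

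The other 5 leading reversed genes turned downward. MYBL2 read 62.1, 62.4 and 66.9 CPM in DMSO and 176, 174 and 147 CPM in FAKi at day 14, then 69.8, 64.3 and 49.01 CPM in DMSO and 37.3, 36.99 and 30.3 CPM in FAKi at day 21. MYBL2 (chr20:43667114-43716482) encodes B-Myb, a transcription factor of cell cycle genes, and its FAKi libraries lay above all DMSO libraries at day 14 and below them at day 21. Its interaction was -2.19 ± 0.20 (SE, edgeR adjusted p = 1.56e-05). PCDH7 read 29.9, 36.9 and 34.6 CPM in DMSO and 65.5, 62.8 and 68.3 CPM in FAKi at day 14, then 20.2, 18.4 and 28.5 CPM in DMSO and 7.66, 6.63 and 8.15 CPM in FAKi at day 21. PCDH7 (chr4:30722354-31146805) is a protocadherin, and its FAKi level at day 21 was below that of every other group, with an interaction of -2.53 ± 0.23 (SE, edgeR adjusted p = 1.42e-05). PBK, a kinase of mitotic cells, had a mean of 41.6 ± 2.73 CPM in DMSO and 66.8 ± 2.17 CPM in FAKi at day 14, and of 40.1 ± 4.15 and 18.2 ± 1.84 CPM at day 21 (SD, n = 3). FCRLA, an Fc receptor-like protein, went from an effect of 1.72 to -1.69, and IGFBPL1, a secreted protein related to insulin-like growth factor binding proteins, from 0.91 to -1.64. In all 8 leading reversed genes the interaction remained called without DMSO day 21 replicate 3 and under the other alternatives run.

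**Figure D2:**
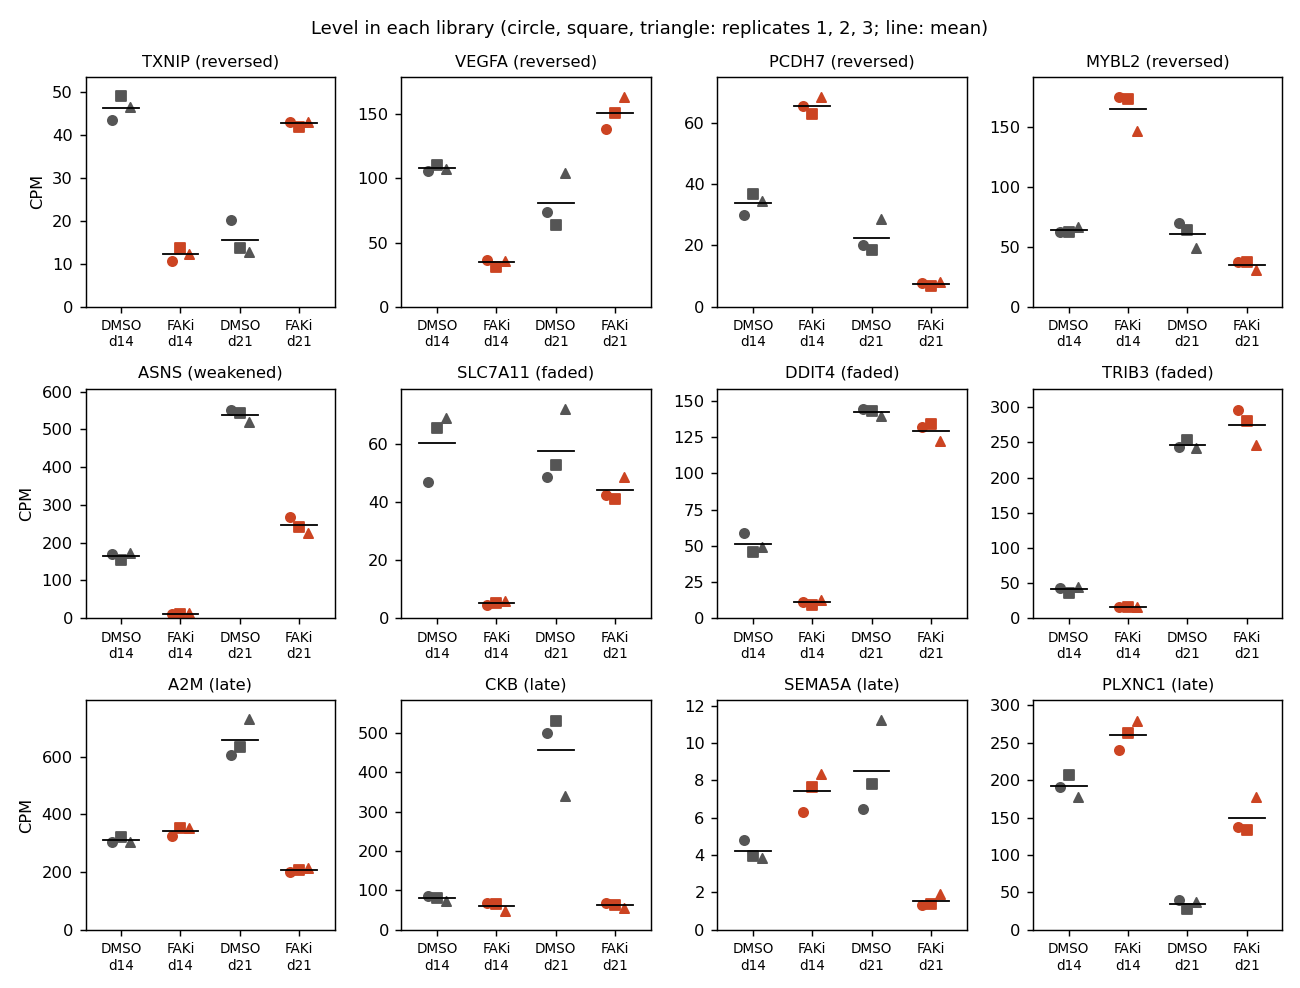
Each panel gives the level of 1 gene in CPM in the 12 libraries, with a linear axis from 0, symbols for replicates 1 to 3 and a line at the group mean. TXNIP, VEGFA, PCDH7 and MYBL2 change the order of FAKi and DMSO between the days, ASNS, SLC7A11, DDIT4 and TRIB3 have their lowest level in FAKi at day 14, and A2M, CKB, SEMA5A and PLXNC1 separate the arms most at day 21.

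Genes of the start of S phase and DNA replication mostly had a higher level in FAKi at day 14 and a lower one at day 21. Of 21 tested, 17 had a called interaction and all 17 were negative, against 3.89% of all genes with a negative call. Reversed members numbered 13, faded members 3 and late members 1. The list median effect was 0.77 at day 14 and -0.55 at day 21 on the log2 scale, against medians of 0.00 and 0.01 over all genes. TYMS makes thymidylate for DNA. TYMS read 92.5, 72.8 and 70.04 CPM in DMSO and 138, 145 and 147 CPM in FAKi at day 14, then 72.7, 70.3 and 50.3 CPM in DMSO and 33.4, 34.1 and 33.6 CPM in FAKi at day 21. Its FAKi libraries were all higher at day 14 and all lower at day 21, with an interaction of -1.80 ± 0.21 (SE, edgeR adjusted p = 8.75e-05), although 66.5% of its exon bases overlap a gene on the other strand and the counting was not stated to use strand. The replication helicase subunits MCM2, MCM3, MCM5, MCM6 and MCM7 were reversed and MCM4 was faded. MCM6 read 38.2, 33.1 and 32.5 CPM in DMSO and 63.3, 60.9 and 67.4 CPM in FAKi at day 14, then 38.2, 33.9 and 35.1 CPM in DMSO and 25.6, 23.03 and 24.5 CPM in FAKi at day 21. MCM6, whose promoter is printed above, had an interaction of -1.44 ± 0.17 (SE, edgeR adjusted p = 9.39e-05). MCM5 went from 0.94 to -0.67 and CDC45, which activates that helicase, from 1.20 to -0.68. The transcription factor E2F1 went from 0.94 to -0.83, and the ribonucleotide reductase subunits RRM1 and RRM2, which make deoxynucleotides, from 0.70 to -0.55 and from 0.82 to -0.79. PCNA, the sliding clamp of DNA polymerases, and GINS2, a helicase cofactor, were also reversed. CCNE1, CCNE2, POLA1 and UNG were not called.

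Without DMSO day 21 replicate 3, 16 replication genes were called, 14 of them reversed, and without FAKi day 14 replicate 1 there were 17. EXO1, an exonuclease of DNA repair and replication that is not on that list, was faded. EXO1 read 40.7, 41.3 and 41.8 CPM in DMSO and 97.9, 93.1 and 99.3 CPM in FAKi at day 14, then 19.4, 18.9 and 19.8 CPM in DMSO and 17.2, 16.9 and 17.5 CPM in FAKi at day 21. The higher FAKi level at day 14 was followed by day 21 levels below those of day 14 in both arms, with an interaction of -1.40 ± 0.15 (SE, edgeR adjusted p = 5.11e-05).

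Of 20 mitotic spindle and kinetochore genes, 9 had a called interaction, all negative (background 3.89%), with 4 reversed and 5 late. CDK1 read 62.9, 49.1 and 51.3 CPM in DMSO and 73.95, 84.6 and 98.3 CPM in FAKi at day 14, then 45.4, 45.3 and 38.4 CPM in DMSO and 22.8, 18.6 and 16.98 CPM in FAKi at day 21. CDK1, the kinase that drives entry into mitosis, had an interaction of -1.80 ± 0.21 (SE, edgeR adjusted p = 0.00011). CDC20 and UBE2C, which act with the anaphase-promoting complex, went from 0.60 to -1.03 and from 0.55 to -1.44, and AURKA, a spindle kinase, from 0.54 to -0.94. CCNB1, the mitotic cyclin and partner of CDK1, was late. CCNB1 read 48.9, 44.1 and 50.1 CPM in DMSO and 54.6, 65.2 and 68.1 CPM in FAKi at day 14, then 96.2, 104 and 86.001 CPM in DMSO and 43.2, 41.3 and 37.8 CPM in FAKi at day 21. Its DMSO level rose between the days while its FAKi level fell, giving an interaction of -1.62 ± 0.18 (SE, edgeR adjusted p = 6.1e-05). MKI67, TOP2A, CENPE, CENPF and KIF11 were not called, and their interactions lay between -0.45 and 0.28. The called members numbered 8 without DMSO day 21 replicate 3, 6 of them reversed and 2 late, and CCNB1 was then reversed.

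Of 18 ER chaperone genes, 6 were called, all negative (background 3.89%), and the list median went from 0.37 at day 14 to -0.36 at day 21. CALR read 915, 845 and 773 CPM in DMSO and 1573, 1487 and 1421 CPM in FAKi at day 14, then 668, 669 and 492 CPM in DMSO and 427, 411 and 365 CPM in FAKi at day 21. CALR was higher in all FAKi libraries at day 14 and lower in all of them at day 21, with an interaction of -1.43 ± 0.19 (SE, edgeR adjusted p = 0.000293). PDIA6, which shares the element shown above, went from 0.54 to -0.61, but 40.7% of its exon bases overlap a gene on the other strand. SDF2L1, an ER cofactor of protein folding, had a mean of 6.11 ± 0.665 CPM in DMSO and 14.4 ± 2.02 CPM in FAKi at day 14, and of 35.5 ± 14.1 and 16.7 ± 3.75 CPM at day 21 (SD, n = 3), and within DMSO day 21 replicate 3 read 19.3 CPM against 43.4 and 43.9 CPM. PDIA4 and CRELD2 were faded and MANF was late. HSPA5, the main ER chaperone, had an interaction of -0.77, with an absolute value under 1, and HYOU1, DNAJB9, SEL1L and XBP1 were not called either. KDELR2, the receptor that returns chaperones to the ER, was late, with a mean of 56.4 ± 4.08 CPM in DMSO and 73.3 ± 1.95 CPM in FAKi at day 14, and of 122 ± 5.81 and 56.8 ± 4.98 CPM at day 21 (SD, n = 3). Glycolysis genes gave 4 negative calls among 17 tested (background 3.89%), 2 of them reversed, and 3 to 12 calls over the alternatives. PKM, the pyruvate kinase, went from 0.44 to -0.83 and ALDOC, an aldolase, from 0.65 to -0.66. With DMSO day 21 replicate 3 left out the calls were 6 for ER chaperones and 7 for glycolysis, with 5 reversed members in each, and KDELR2 was reversed.

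Genes of the integrated stress response were lower in FAKi at day 14, and most of this difference was gone or smaller at day 21. Of 23 genes tested, 18 were lower in FAKi at day 14 by the adjusted p alone (background 2.68%) and 9 at day 21 (background 10.7%). The interaction was called in 16, of which 15 were positive, against 3.54% of all genes with a positive call. Among the 16, 11 were faded, 4 weakened and 1 late. The list median effect was -1.41 at day 14 and -0.21 at day 21, and the median change from day 14 to day 21 was 1.00 in DMSO and 2.27 in FAKi.

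ASNS (chr7:97852128-97872131), the enzyme that makes asparagine, had the smallest interaction p of the weakened genes. ASNS read 169.5, 154 and 172 CPM in DMSO and 10.6, 11.7 and 14.01 CPM in FAKi at day 14, then 552, 543 and 519 CPM in DMSO and 269, 242 and 226 CPM in FAKi at day 21. Its FAKi libraries were below the DMSO libraries on both days, and the effect shrank from -3.77 to -1.13, an interaction of 2.64 ± 0.18 (SE, edgeR adjusted p = 1.06e-06). Of its exon bases, 81.96% are shared with another annotated gene of the same strand, so the split of reads between both is uncertain. ATF4 itself was weakened, from -1.74 to -0.49, and its processed pseudogene ATF4P3, which can share reads with it, from -1.64 to -0.36. CHAC1 read 50.7, 42.2 and 49.8 CPM in DMSO and 9.90, 7.72 and 7.93 CPM in FAKi at day 14, then 161, 159 and 168 CPM in DMSO and 85.6, 85.8 and 81.5 CPM in FAKi at day 21. CHAC1 was lower in FAKi on both days, with an interaction of 1.53 ± 0.18 (SE, edgeR adjusted p = 8.75e-05). The aminoacyl-tRNA synthetases CARS1 and SARS1, which charge tRNA with cysteine and serine, went from -1.93 to -0.34 and from -1.74 to -0.63, and PCK2, the mitochondrial phosphoenolpyruvate carboxykinase, from -1.91 to -0.46.

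Genes of amino acid supply were among the faded ones. SLC7A11 read 47.002, 65.8 and 69.2 CPM in DMSO and 4.62, 5.17 and 5.93 CPM in FAKi at day 14, then 48.7, 52.7 and 72.1 CPM in DMSO and 42.6, 41.1 and 48.7 CPM in FAKi at day 21. SLC7A11 (chr4:138164097-138242349), the cystine and glutamate exchanger, was lower in every FAKi library at day 14, whereas at day 21 the FAKi and DMSO ranges overlapped by 1 library, with the highest FAKi library at 48.7 CPM and the lowest DMSO library at 48.7 CPM. The effect went from -3.54 to -0.39, an interaction of 3.15 ± 0.25 (SE, edgeR adjusted p = 8.08e-06). PSAT1 read 306, 282 and 313 CPM in DMSO and 62.5, 70.6 and 67.6 CPM in FAKi at day 14, then 360.2, 358 and 458 CPM in DMSO and 389, 365 and 381 CPM in FAKi at day 21. PSAT1, a serine synthesis enzyme, overlapped between arms at day 21 and had an interaction of 2.11 ± 0.17 (SE, edgeR adjusted p = 8.77e-06). SHMT2, which converts serine to glycine in mitochondria, went from -1.09 to 0.02. CBSL, a near-identical copy of the cystathionine synthase gene CBS, went from -1.47 to 0.02, and reads of both copies cannot be told apart.

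Regulators of the same response faded as well. DDIT4 read 58.8, 45.98 and 48.9 CPM in DMSO and 11.2, 9.01 and 12.3 CPM in FAKi at day 14, then 144, 143 and 139.5 CPM in DMSO and 132, 134 and 123 CPM in FAKi at day 21. DDIT4, an inhibitor of mTORC1 signaling, rose between the days in both arms, and the effect went from -2.24 to -0.14, an interaction of 2.11 ± 0.19 (SE, edgeR adjusted p = 1.4e-05). TRIB3 read 42.9, 36.3 and 44.3 CPM in DMSO and 15.99, 15.4 and 16.4 CPM in FAKi at day 14, then 243, 254 and 241 CPM in DMSO and 297, 281 and 246 CPM in FAKi at day 21. TRIB3, a pseudokinase that restrains ATF4 and AKT signaling, rose more in FAKi than in DMSO, with an interaction of 1.53 ± 0.17 (SE, edgeR adjusted p = 6.1e-05). With all 27 libraries in the fit the interactions of TRIB3, CHAC1 and SARS1 were no longer called, at edgeR adjusted p of 0.0631, 0.0844 and 0.053. STC2, a secreted glycoprotein, had a mean of 37.7 ± 3.001 CPM in DMSO and 8.05 ± 0.803 CPM in FAKi at day 14, and of 44.7 ± 5.09 and 38.9 ± 0.705 CPM at day 21 (SD, n = 3). CEBPG and CEBPB, partners of ATF4, went from -1.50 to -0.21 and from -1.37 to 0.02, and DDIT3, which encodes CHOP, from -1.41 to -0.04. NUPR1 was weakened, and SESN2 and PPP1R15A were faded. ATF3, a stress factor counted with the immediate early genes, went from -1.38 to -0.32. VLDLR, a lipoprotein receptor, was the 1 negative call of the list, and ATF5, GDF15, MTHFD2, PHGDH, PSPH, SLC3A2 and SLC7A5 were not called. GDF15, a secreted cytokine, kept an effect of -1.79 at day 14 and -1.69 at day 21. The list had 16 and 16 called members without DMSO day 21 replicate 3 and without FAKi day 14 replicate 1.

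**Figure D3:**
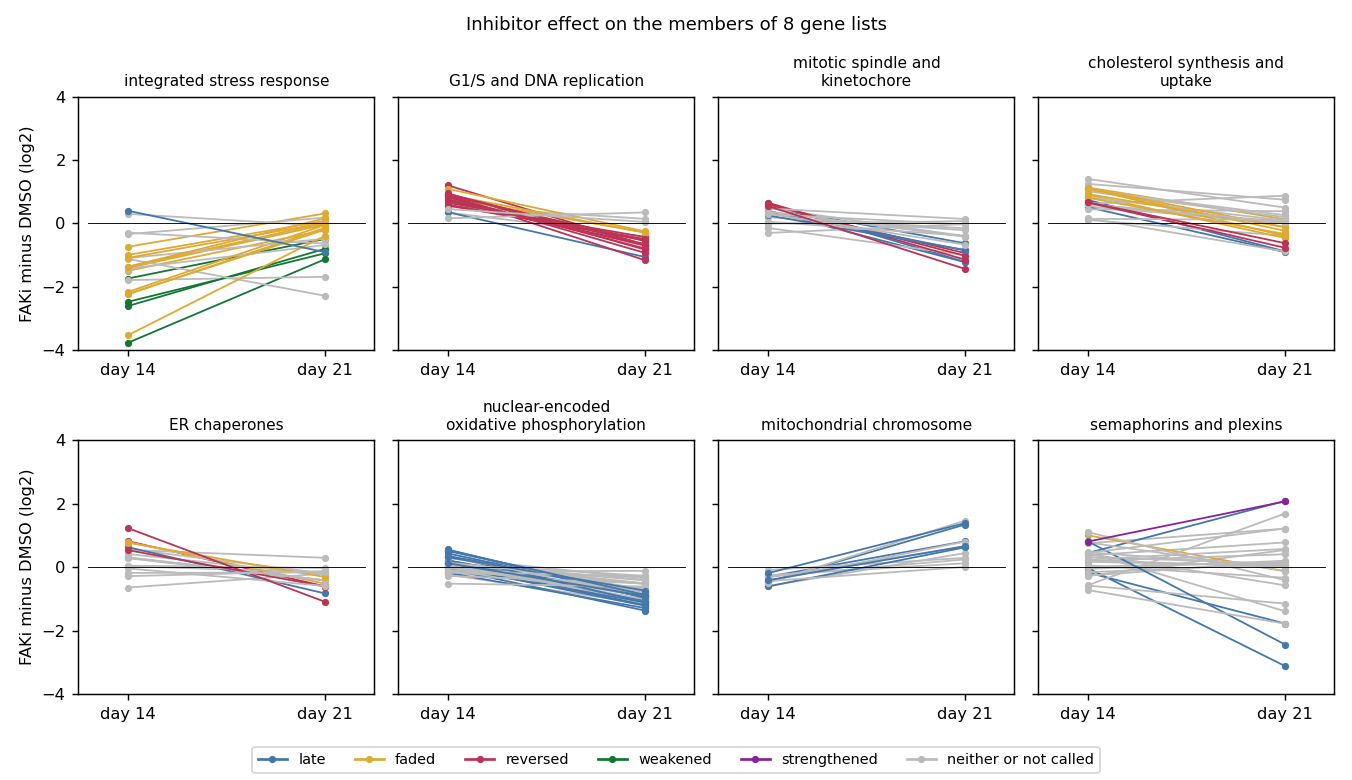
Each line joins the FAKi minus DMSO difference of 1 gene at day 14 and at day 21, on the log2 scale, for 8 gene lists, coloured by class. Integrated stress response genes climb from a median of -1.41 to -0.21, replication genes descend from 0.77 to -0.55, and oxidative phosphorylation genes descend from 0.05 to -0.83.

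Faded effects in the other direction were found among cholesterol synthesis and uptake genes. Of 24 tested, 19 were higher in FAKi at day 14 by the adjusted p alone (background 2.76%) and 3 at day 21 (background 7.84%), and 11 had a called interaction, all negative (background 3.89%). Faded members numbered 7, reversed members 2 and late members 2. IDI1 read 94.6, 102 and 82.98 CPM in DMSO and 208, 187 and 199 CPM in FAKi at day 14, then 62.6, 63.5 and 49.2 CPM in DMSO and 53.9, 48.7 and 46.2 CPM in FAKi at day 21. IDI1, which isomerizes isopentenyl diphosphate, was higher in FAKi at day 14 in every library, with an interaction of -1.32 ± 0.18 (SE, edgeR adjusted p = 0.000324), which was not called with all 27 libraries in the fit (edgeR adjusted p = 0.0557). SQLE, squalene epoxidase, and TMEM97, a sterol-responsive membrane protein, were reversed, from 0.66 to -0.77 and from 0.67 to -0.63. HMGCS1, an early enzyme of the pathway, had an effect of 1.25 at day 14 and 0.74 at day 21, and its interaction was not called. Without DMSO day 21 replicate 3 there were 10 called members, of which 7 were reversed, IDI1 among them, and 2 faded.

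Faded genes outside these programs included signaling and mitochondrial genes. NDUFA4L2 read 4.81, 4.51 and 4.13 CPM in DMSO and 0.177, 0.204 and 0.230 CPM in FAKi at day 14, then 9.52, 10.9 and 6.85 CPM in DMSO and 7.23, 7.54 and 5.73 CPM in FAKi at day 21. NDUFA4L2, a mitochondrial protein known as a hypoxia-induced gene, was near the detection limit in FAKi at day 14, and its arms overlapped at day 21. EGR1 read 3.54, 2.94 and 3.87 CPM in DMSO and 22.2, 12.8 and 19.99 CPM in FAKi at day 14, then 4.94, 3.35 and 9.67 CPM in DMSO and 3.23, 5.89 and 3.50 CPM in FAKi at day 21. EGR1, an immediate early transcription factor of growth factor signaling, was higher in each FAKi library at day 14 and overlapped at day 21, with an interaction of -2.93 ± 0.47 (SE, edgeR adjusted p = 0.00103). NOG read 0.466, 0.0309 and 0.128 CPM in DMSO and 5.95, 4.12 and 4.44 CPM in FAKi at day 14, then 0.278, 0.167 and 0.272 CPM in DMSO and 0.473, 0.265 and 0.141 CPM in FAKi at day 21. NOG, the secreted BMP antagonist noggin, was low in all groups but FAKi at day 14 and had an interaction of -4.30 ± 0.93 (SE, edgeR adjusted p = 0.00748). ID3, a target of BMP signaling, went from 1.39 to 0.23, and CCND3, a D cyclin, from 0.90 to -0.31. DDR2 read 191, 225 and 235 CPM in DMSO and 81.6, 78.5 and 82.9 CPM in FAKi at day 14, then 94.7, 96.997 and 161 CPM in DMSO and 108, 112 and 144 CPM in FAKi at day 21. DDR2, a collagen-binding receptor tyrosine kinase, was lower in FAKi at day 14 and overlapped at day 21, where DMSO replicate 3 was the highest library, with an interaction of 1.47 ± 0.26 (SE, edgeR adjusted p = 0.00172). LAMA1, a laminin chain, had an effect of 1.05 at day 14 and -0.42 at day 21, and PLXND1, a semaphorin receptor, of 1.01 and -0.13. The YAP target CCN1 went from 1.10 to 0.03, and its call was lost in 11 of 25 alternatives. Without DMSO day 21 replicate 3, DDR2 was reversed and NDUFA4L2 weakened.

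Late genes made up most of the calls, with 562 upward (2.17% of all genes tested) and 621 downward (2.4%). The upward share of late genes, 47.5%, was 58.5% with upper quartile scaling, 57.6% with the replicate block within each day and 58.04% without DMSO day 21 replicate 3. The late genes numbered 2438 without DMSO day 21 replicate 3, and without FAKi day 21 replicate 3 there were 552. A2M read 305, 321 and 303 CPM in DMSO and 325, 352 and 351 CPM in FAKi at day 14, then 605, 633 and 732 CPM in DMSO and 202, 207 and 214 CPM in FAKi at day 21. A2M (chr12:9067708-9115919), a secreted protease inhibitor, rose between the days in DMSO and fell in FAKi, with an interaction of -1.81 ± 0.16 (SE, edgeR adjusted p = 1.28e-05). The FAKi libraries of A2M were slightly above the DMSO libraries at day 14, where its adjusted p did not pass, and below them at day 21. CD36 read 97.9, 105 and 106 CPM in DMSO and 76.8, 69.3 and 79.6 CPM in FAKi at day 14, then 193, 207 and 259.9 CPM in DMSO and 42.8, 35.98 and 39.96 CPM in FAKi at day 21. CD36 (chr7:80638642-80679274), a fatty acid and lipoprotein receptor, was already lower in each FAKi library at day 14, where its adjusted p did not pass, and its interaction was -2.02 ± 0.18 (SE, edgeR adjusted p = 1.42e-05). CKB read 86.7, 80.1 and 72.2 CPM in DMSO and 67.1, 65.4 and 48.9 CPM in FAKi at day 14, then 499, 532 and 340.1 CPM in DMSO and 67.2, 64.1 and 56.3 CPM in FAKi at day 21. CKB (chr14:103519667-103522830), the brain-type creatine kinase that buffers ATP, rose between the days in DMSO and read close to its day 14 level in FAKi, with an interaction of -2.47 ± 0.24 (SE, edgeR adjusted p = 2.28e-05). DOK5 read 7.67, 6.62 and 6.31 CPM in DMSO and 4.83, 4.80 and 5.59 CPM in FAKi at day 14, then 36.4, 37.9 and 43.7 CPM in DMSO and 6.58, 4.09 and 5.81 CPM in FAKi at day 21. DOK5, an adaptor of receptor tyrosine kinases, showed the same form, with an interaction of -2.39 ± 0.25 (SE, edgeR adjusted p = 4.75e-05). FBLN1, an extracellular matrix glycoprotein, had a mean of 94.4 ± 9.18 CPM in DMSO and 116 ± 6.54 CPM in FAKi at day 14, and of 106 ± 6.95 and 38.7 ± 3.67 CPM at day 21 (SD, n = 3), and it fell between the days in FAKi, with a change of -1.58 there and of 0.17 in DMSO. Of the 8 late genes with the smallest p, 6 changed class without DMSO day 21 replicate 3, FBLN1, SEMA5A, KDELR2 and CCNB1 to reversed and CD36 and CKB to strengthened, while A2M and DOK5 were late there too.

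Adhesion, guidance and matrix genes were among the late and strengthened ones. Semaphorins and plexins, guidance ligands and their receptors, gave 6 calls of 28 tested, 2 upward and 4 downward, against 7.43% of all genes called, and 5 to 9 calls over the alternatives, with 8 without DMSO day 21 replicate 3. Among the ligands, SEMA5A read 4.81, 3.96 and 3.84 CPM in DMSO and 6.30, 7.62 and 8.35 CPM in FAKi at day 14, then 6.44, 7.81 and 11.2 and 1.33, 1.38 and 1.89 CPM at day 21. Its FAKi libraries were above DMSO at day 14 and below at day 21, although the day 14 effect did not pass, and its interaction was -3.26 ± 0.35 (SE, edgeR adjusted p = 5.46e-05). SEMA6D had a mean of 12.5 ± 2.68 CPM in DMSO and 21.9 ± 1.70 CPM in FAKi at day 14, and of 2.61 ± 0.453 and 10.9 ± 2.42 CPM at day 21 (SD, n = 3) and was strengthened upward, from 0.81 to 2.08. SEMA6A went from 0.45 to 1.22 and its interaction of 0.77 was under the fold threshold. SEMA3A was called downward, with a day 21 effect of -3.12. Among the receptors, PLXNC1 read 191, 206 and 178 CPM in DMSO and 239.9, 263 and 279.7 CPM in FAKi at day 14, then 39.9, 27.96 and 36.9 CPM in DMSO and 138, 133 and 177 CPM in FAKi at day 21. Both arms of PLXNC1 fell from day 14 to day 21, DMSO more than FAKi, and the interaction was 1.65 ± 0.21 (SE, edgeR adjusted p = 0.000183). The FAKi libraries of PLXNC1 were above the DMSO libraries on both days, although the day 14 effect did not pass. Its FAKi mean was also the higher one at day 3, as given below. PLXNC1 was strengthened in place of late without DMSO day 21 replicate 3. PLXNA2 went downward, from -0.17 to -1.78.

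NRCAM, a neuronal cell adhesion molecule, was strengthened downward. NRCAM read 7.51, 8.47 and 9.03 CPM in DMSO and 2.74, 2.31 and 3.02 CPM in FAKi at day 14, then 14.3, 14.8 and 25.6 CPM in DMSO and 0.602, 0 and 0.254 CPM in FAKi at day 21. Its FAKi level at day 21 was near 0, and the fitted interaction was -4.29 ± 0.57 (SE, edgeR adjusted p = 0.000251). SERPINI1, the protease inhibitor neuroserpin, also strengthened downward, from -0.80 to -2.71. Collagen chains gave 8 calls of 31, 6 upward (background 3.54%), and 3 to 9 over the alternatives. COL9A3 was reversed downward, from 0.84 to -1.11, while COL24A1 and COL27A1 were late and upward, at 2.73 and 0.97 at day 21. SPARC, a collagen-binding matricellular protein, was reversed, from 0.43 to -0.89. Of 26 focal adhesion genes 2 were called, a share near the 7.43% of all genes, and 4 without DMSO day 21 replicate 3. They were PTK2B, the closest relative of FAK, and LPXN, a paxillin family adaptor, both late and upward. PTK2B read 11.4, 11.7 and 10.8 CPM in DMSO and 9.31, 8.74 and 8.73 CPM in FAKi at day 14, then 5.94, 4.58 and 7.08 CPM in DMSO and 8.64, 10.5 and 12.7 CPM in FAKi at day 21. The PTK2B interaction was 1.19 ± 0.27 (SE, edgeR adjusted p = 0.00883). Of 17 integrin subunits 1 was called, a share below that of all genes, which was ITGA1 at -1.98, and 2 were called without DMSO day 21 replicate 3. BMP4, a secreted differentiation factor, went from -0.33 to 1.00 and the receptor FGFR2 from -0.39 to 1.67.

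Of 18 AP-1 and immediate early genes 7 were called, 6 downward (background 3.89%), with 5 called without DMSO day 21 replicate 3. NR4A1 read 101.1, 107 and 112 CPM in DMSO and 123, 113 and 107 CPM in FAKi at day 14, then 249, 248 and 256 CPM in DMSO and 123, 121 and 112 CPM in FAKi at day 21. NR4A1, an orphan nuclear receptor induced by growth factors, separated from DMSO only at day 21, with an interaction of -1.18 ± 0.15 (SE, edgeR adjusted p = 0.000193). FOS went from 0.49 to -1.20 and JUNB from 0.53 to -0.52. Of 20 YAP targets CCN1, CCN2 and NT5E were called, all downward (background 3.89%), with 1 to 4 calls over the alternatives. The list as a whole did not move downward, with 10 interactions above 0, 10 below and a median of 0.05. Without DMSO day 21 replicate 3 there were 4 calls, 1 of them upward. CCN2 was near the detection limit, with group means from 0.46 to 2.54 CPM. PLCB4, the phospholipase downstream of the Gq proteins, was reversed upward, from -0.66 to 0.68, and EIF1AX, a translation factor mutated in uveal melanoma, went from 0.01 to -1.02 and was not called without DMSO day 21 replicate 3. DCT was the 1 melanocyte lineage gene called of 19, a share below that of all genes, at 1.14, and its call was lost in 8 of 25 alternatives, the length and GC correction and the fit without FAKi day 14 replicate 1 among them. No member was called among Eph receptors and ephrins, cadherins, RGS proteins, heat shock genes, MHC class I presentation genes and the 78 cytosolic ribosomal protein genes. By edgeR's unadjusted p under 0.05 these lists had 3, 2, 2, 2, 5 and 12 members in that order, and DESeq2 called 1, 0, 0, 1, 1 and 0. Leaving out DMSO day 21 replicate 3 gave 2 called Eph or ephrin, 1 heat shock, 1 MHC class I and 12 ribosomal protein genes, all ribosomal ones downward. The ribosomal list had a median effect of -0.28 at day 14 and -0.69 at day 21.

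Calls among respiratory chain genes were downward for nuclear-encoded and upward for mitochondrially encoded members. Of 43 nuclear-encoded oxidative phosphorylation genes 16 were called, all late and downward (background 3.89%), and the list median went from 0.05 to -0.83. SDHB read 38.1, 28.05 and 26.5 CPM in DMSO and 42.7, 39.5 and 36.6 CPM in FAKi at day 14, then 101.3, 107 and 68.4 CPM in DMSO and 47.2, 42.6 and 38.7 CPM in FAKi at day 21. SDHB, a subunit of succinate dehydrogenase, rose between the days in DMSO, where replicate 3 was the lowest library of day 21, and read close to its day 14 level in FAKi, with an interaction of -1.47 ± 0.25 (SE, edgeR adjusted p = 0.00132). NDUFA4 went from 0.56 to -0.98 and the ATP synthase subunits ATP5MC1 and ATP5MC3 from 0.51 to -0.83 and from 0.36 to -0.79. Of 13 genes of the mitochondrial chromosome 6 were called, all upward (background 3.54%). MT-ND2 read 22380, 30526 and 31497 CPM in DMSO and 17983, 19009 and 18350 CPM in FAKi at day 14, then 2970, 3084 and 5355 CPM in DMSO and 6002, 5844 and 5783 CPM in FAKi at day 21. MT-ND2, a subunit of complex I, fell in both arms, more in DMSO, and overlapped between arms at neither day, with an interaction of 1.24 ± 0.28 (SE, edgeR adjusted p = 0.00944). The call counts moved with single libraries. Without DMSO day 21 replicate 3 they were 26 nuclear and 9 mitochondrial, with 5 and 6 of them reversed, NDUFA4, ATP5MC1, ATP5MC3 and MT-ND2 among these, and without FAKi day 14 replicate 1 they were 11 and 3. Over the alternatives the nuclear calls ran from 5 to 26 and the mitochondrial calls from 2 to 9.

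The change of the inhibitor effect was split into the change of each arm. Of the 1922 called genes, 901 changed between the days in DMSO alone by the adjusted p, 345 in FAKi alone, 432 in both in the same direction and 226 in both in opposite directions. Over all genes tested, 47.1% changed in DMSO and 33.7% in FAKi. The larger change was in DMSO for 1348 of all 1922 called genes (70.1%). It was in DMSO for 949 of 1183 late genes, 110 of 215 reversed genes and 125 of 261 faded genes. In all 15 weakened genes the larger change was in FAKi. This split was counted with all 12 libraries only, and not over all genes tested. A majority with the larger change in DMSO is therefore not shown to be particular to called or late genes. CKB and DOK5 moved in DMSO, with log2 changes of 2.52 and 2.52 there and 0.05 and 0.12 in FAKi. MYBL2 and SLC7A11 moved in FAKi, with -2.25 and 3.08 there and -0.06 and -0.07 in DMSO. TXNIP and FCRLA moved in opposite directions, by -1.58 and 1.25 in DMSO and by 1.80 and -2.15 in FAKi.

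**Figure D4:**
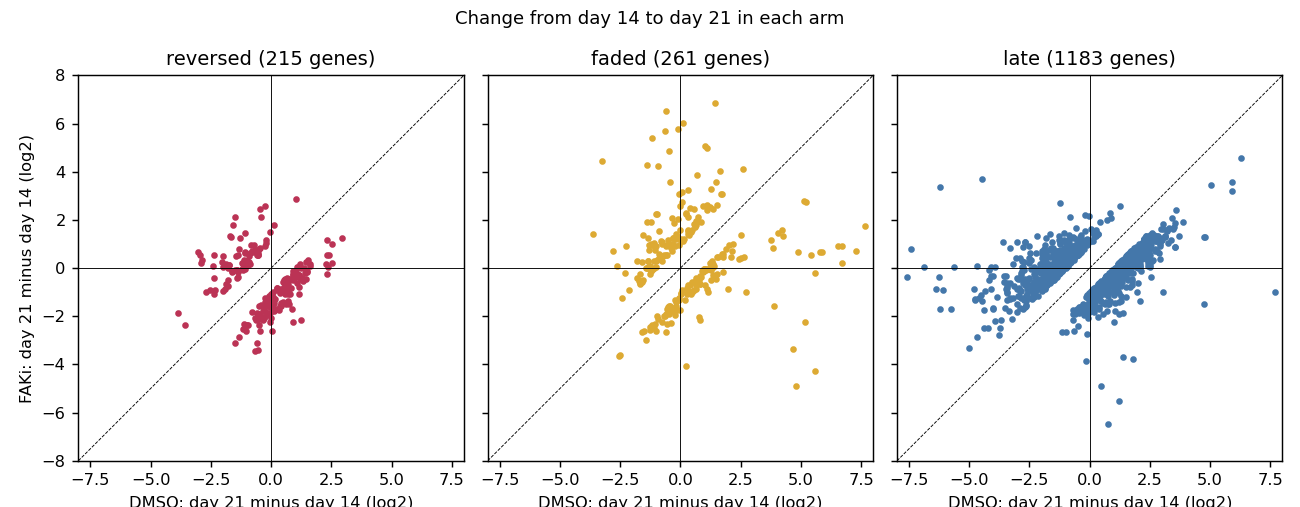
Each point is 1 called gene, with its day 21 minus day 14 change in DMSO on the x axis and in FAKi on the y axis, both on the log2 scale, in a panel per class. The dashed line marks equal change in both arms. Late genes spread along the DMSO axis, with the larger change in DMSO for 949 of 1183, while faded genes split about evenly, with 125 of 261. Over all called genes the larger change was in DMSO for 1348 of 1922. This was not counted over all genes tested, of which 47.1% changed in DMSO and 33.7% in FAKi by the adjusted p.

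Annotated gene length and base composition differed with the direction of the interaction, and their part in the results was not tested beyond the correction given here. The median annotated length was 3746 bases for genes with an upward call, 1794 for those with a downward call and 2217 for all genes tested. The median GC content was 45.1%, 52.6% and 48.3%. With each library corrected for both, an alternative chosen after seeing the data, 1813 genes were called, of which 1505 were among the 1922. Under it 16 integrated stress response, 15 replication, 11 mitotic, 10 cholesterol, 16 nuclear oxidative phosphorylation and 6 mitochondrial genes were called.

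**Figure D5:**
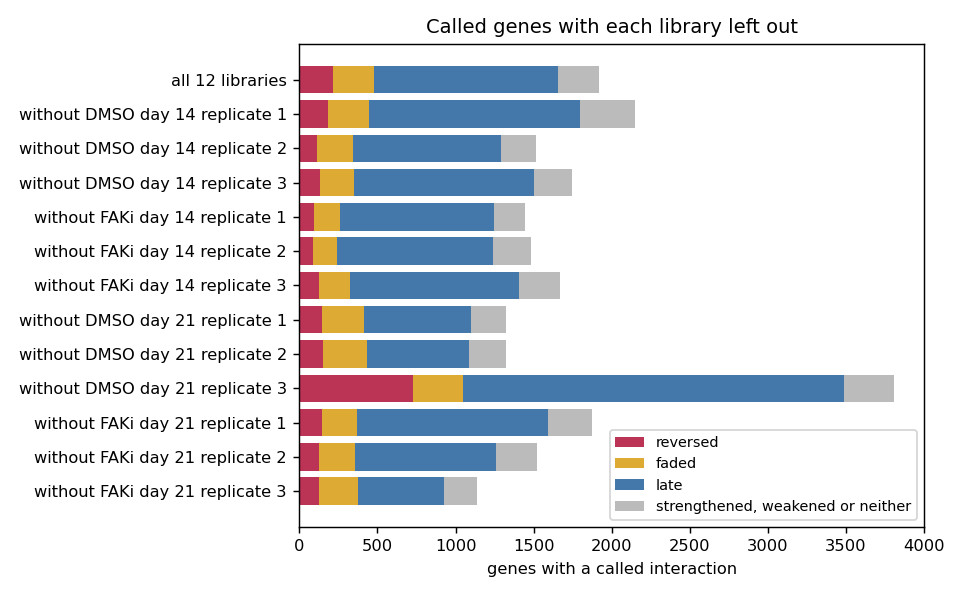
Bars give the number of genes with a called interaction, split by class, for all 12 libraries and with each library left out in turn. The count is 1922 with all libraries, 1138 without FAKi day 21 replicate 3 and 3812 without DMSO day 21 replicate 3.

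Without DMSO day 21 replicate 3, 3812 genes were called, and 1857 of the 1922 were among them. Late genes were the most numerous class in each of the 12 fits with a library left out, at 681 and 654 without DMSO day 21 replicates 1 and 2. The faded genes numbered 163 and 154 without FAKi day 14 replicates 1 and 2. There were 89 and 125 reversed genes without FAKi day 14 replicates 2 and 3, 115 and 129 without DMSO day 14 replicates 2 and 3, 142 without DMSO day 21 replicate 1, and 127 and 125 without FAKi day 21 replicates 2 and 3. For TXNIP, ASNS and MYBL2 the interaction without DMSO day 21 replicate 3 was 3.25, 2.62 and -2.33, and without FAKi day 14 replicate 1 it was 3.29, 2.55 and -2.14.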

How the data were processed

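RNA from 92.1 cells was sequenced as stranded mRNA libraries. Per the labels and the file header, the authors trimmed reads with Trim Galore, checked them with FastQC 0.11.8, aligned them to hg38 with STAR 2.5.3a and deposited raw counts per gene, summed over exons of GENCODE 39 with HOMER. The count command names no strand option, so reads of overlapping antisense genes were not separated as far as it shows.

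The deposited counts of the 12 libraries were scaled by TMM, and genes with at least 20 counts in total were fitted with the quasi-likelihood test of edgeR 4.0.16 (R 4.3.3), with 1 mean per group and Benjamini-Hochberg adjustment over all 25869 genes. CPM values use the TMM-scaled library sizes. In simulated counts with 200 genes changed by 2 on the log2 scale in the interaction among 25259 genes, 165 were called with the right sign, and 8 others were called. The simulated libraries were independent, with the same mean in all groups before the change, and the changed genes had a mean of at least 1 CPM. No outlying library and no shared deviation of same-numbered libraries was simulated, so these counts do not give the error rate for the real libraries. DESeq2 1.42.0 was run as an alternative. Overlaps between genes, GC content and transcripts came from GENCODE 44, with GC content for 99.4% of genes. Promoters came from RefSeq (GRCh38.p14). Some items are not reported here.

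Members, gene lists, classes and motifs were chosen with earlier results of these data known. The genes named were the 8 called genes with the smallest interaction p in each class (weakened and strengthened together), with a mean of at least 1 CPM in a group and a symbol that is not a clone name, up to 4 called members per gene list, and PTK2, GNAQ, SEMA6A, SEMA6D and PLXNC1. Other list members are given by their fitted effect only. Deviations of same-numbered DMSO and FAKi libraries from their group means correlated at day 21 (r = 0.442, 0.141 and 0.666 across genes) but not at day 14 (0.00577, 0.000554 and -0.0126). At day 21 DMSO replicate 2 with FAKi replicate 1 gave 0.498, and DMSO replicate 1 with FAKi replicate 2 gave 0.193. Replicate 3 with another number gave -0.569 to -0.196. The day 21 correlations thus do not follow equal numbers alone. The sample descriptions carry an NGS code that runs with the replicate number, and its meaning is not stated. The main fit used no replicate block. Alternatives were other scalings, filters, thresholds and fits, the replicate number as a block, each library left out, and a spline correction for length and GC.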

Additional observations from a re-analysis of the deposited data

Results flagged for a closer look

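The effect of the inhibitor differed between days 14 and 21, by the interaction test itself, in 1922 genes. The genes named for their small interaction p are given here with the log2 interaction of each (edgeR). The reversed genes were TXNIP (3.38), LINC01531 (2.12), IGFBPL1 (-2.55), VEGFA (2.55), PCDH7 (-2.53), MYBL2 (-2.19), FCRLA (-3.40) and PBK (-1.83). The faded genes were SLC7A11 (3.15), PSAT1 (2.11), DDIT4 (2.11), STC2 (2.03), NDUFA4L2 (4.03), CBSL (1.49), EXO1 (-1.40) and TRIB3 (1.53). The late genes were A2M (-1.81), CD36 (-2.02), CKB (-2.47), FBLN1 (-1.76), DOK5 (-2.39), SEMA5A (-3.26), KDELR2 (-1.48) and CCNB1 (-1.62), of which A2M and DOK5 were late also without DMSO day 21 replicate 3. The weakened or strengthened genes were ASNS (2.64), CARS1 (1.59), CHAC1 (1.53), ATF4P3 (1.28), NRCAM (-4.29), PCK2 (1.44), SERPINI1 (-1.90) and SARS1 (1.11). With 3 libraries in a group, no library was tested as an outlier.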

How the results depend on the processing

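Of 100 genes named by rule, 97 had a called interaction. The rule itself largely sets this count, because apart from PTK2, GNAQ, SEMA6A, SEMA6D and PLXNC1 it takes called genes only. Of the 97, 73 were called under each of 25 alternatives that gave them a value. These genes were chosen in the same data, many for a small interaction p, so the 73 does not describe all called genes. Of the genes named in the report, CHAC1, TRIB3, SARS1 and IDI1 lost their call with all 27 libraries in the fit, SESN2 with that fit and without DMSO or FAKi day 14 replicate 3, CCN1, DCT and EIF1AX in several settings, CCN2 without FAKi day 21 replicate 3 and at an adjusted p of 0.01, ATF3 without FAKi day 14 replicate 3, and CCND3 under the length and GC correction. ID3 lost its call under that correction, without DMSO day 21 replicate 1 and at an adjusted p of 0.01. SEMA6D lost its call under that correction with the replicate block within each day, where its interaction was 0.998. The interaction of PTK2, which was not called, changed sign from 0.15 to -0.0332 under the length and GC correction and to -0.0328 with the replicate block added. RLE and upper quartile scaling, filterByExpr, at least 10 counts in every library and the replicate block over both days kept all 8 counts within 1.5 times. With the adjusted p alone, 3294 interactions, 536 faded, 1970 late, 1405 day 14, 4795 day 21, 12178 DMSO and 8712 FAKi changes were called. At an adjusted p of 0.01 there were 962 interactions, 65 reversed, 140 faded, 572 late, 205 day 14 and 899 day 21 calls. Day 14 calls, 409 in the report's fit, were 712 with DESeq2 and 632 with all 27 libraries in the fit. Reversed genes, 215 there, were 361 with no count filter, 349 with DESeq2, 464 with the replicate block within each day and 454 with that block and the length and GC correction. The cause was not tested beyond each alternative's own construction. Deviations of same-numbered libraries correlated at day 21 only, where no more than 2 of 3 DMSO and 1 of 3 FAKi libraries correlated best with their own number. The blocks moved no other count by over 1.5 times. With each library left out, the ranges were 1138 to 3812 interactions, 89 to 728 reversed, 154 to 322 faded, 552 to 2438 late, 238 to 624 day 14, 772 to 3319 day 21, 5930 to 8547 DMSO and 3372 to 4422 FAKi calls. The lone pairs left by this share the other groups' spread in edgeR. Genes near 0 in a group, such as NRCAM, NOG and NDUFA4L2, have interactions limited by depth.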

Other observations

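The levels of the leading genes at the earlier times, scaled over all 27 libraries, are given as CPM with the SD of 3 libraries. DMSO means of ASNS were 358 ± 12.7 on day 0, 459.9 ± 98.0 on day 3 and 305 ± 7.67 on day 7, while FAKi gave 339.8 ± 16.2 on day 3. DMSO means of TRIB3 were 164 ± 1.96 on day 0, 217 ± 34.2 on day 3 and 179 ± 6.21 on day 7, while FAKi gave 175 ± 11.04 on day 3. DMSO means of TXNIP were 15.9 ± 1.93 on day 0, 10.3 ± 1.51 on day 3 and 23.7 ± 6.98 on day 7, while FAKi gave 12.7 ± 0.502 on day 3. DMSO means of MYBL2 were 44.8 ± 3.68 on day 0, 57.4 ± 16.5 on day 3 and 52.02 ± 12.6 on day 7, while FAKi gave 103 ± 16.2 on day 3. DMSO means of A2M were 699.6 ± 4.80 on day 0, 764 ± 70.7 on day 3 and 449 ± 11.5 on day 7, while FAKi gave 617 ± 42.4 on day 3. The DMSO level of ASNS, TRIB3 and A2M was lowest at day 14 among the 5 times, and that of TXNIP was highest then. DMSO means of PLXNC1 were 43.2 ± 2.64 on day 0, 38.2 ± 12.8 on day 3 and 90.6 ± 4.46 on day 7, while FAKi gave 84.5 ± 9.18 on day 3, and the DMSO mean of PLXNC1 was highest at day 14 as well.

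In FAKi at day 7 the 3 libraries differed widely in the same genes, and replicates 1, 2 and 3 are given in that order. ASNS read 12.3, 307 and 309 CPM, SLC7A11 4.07, 98.6 and 121 CPM, TRIB3 15.2, 182 and 152 CPM, VEGFA 40.6, 147 and 133 CPM, MYBL2 173, 46.6 and 32.9 CPM, MCM6 67.1, 24.9 and 23.1 CPM and CALR 1563, 458 and 401 CPM. Replicate 1 read within the range of, or close to, the FAKi day 14 libraries in each of these, where ASNS averaged 12.4 ± 1.81 CPM and MYBL2 169 ± 16.1 CPM, while replicates 2 and 3 read differently. The counts of that library and FAKi day 14 replicate 1 differed by a chi-square of 1.64 per degree of freedom, against 3.77 to 135 between libraries of the same group at days 14 and 21. The library labelled FAKi day 7 replicate 1 enters none of the comparisons of days 14 and 21, other than the fit with all 27 libraries.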
